A study of Drosophila melanogaster with 14 samples.

Results

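The replication-dependent histone gene cluster of Drosophila melanogaster was described across 14 Repli-seq libraries of testis tumour nuclei. Its members were the annotated genes with symbols starting His1:, His2A:, His2B:, His3: or His4: on chromosome 2L between 21416953 and 21541681 (dm6). These were 111 of the 18358 annotated genes of the genome other than transposable elements, namely 23 His1, 20 His2A, 23 His2B, 23 His3 and 22 His4 copies. Signal was read from the 128 of 139491 deposited windows that overlapped this interval of 124729 bp, and from 200 windows in the 200 kb on either side, called the flanks.

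The study set DNA replication in tumours of germline stem cell character beside that in tumours of somatic stem cell character. GSC-like nuclei, named after germline stem cells, came from tumours in which the ligand Unpaired was overexpressed by the germline driver nanos (y[1] w[1118] P{hs70FLP}; GAL4::VP16-nanos.UTR with UAS-Upd). CySC-like nuclei, named after the somatic cyst stem cells that surround the germline, came from tumours in which a traffic Jam-GAL4 driver expressed UAS-Upd in a w[1118] background. Both genotypes also carried UAS-FRT-H3-GFP-FRT-H3-mKO, a reporter of tagged histone H3, and GFP-positive nuclei were sorted. All crosses were kept at 25 °C on molasses food. Each preparation pooled 100 to 200 pairs of testes, which were kept for 15 minutes in 100 mM BrdU, an analogue of thymidine that marks newly made DNA. DNA content split the nuclei into 4 fractions from early to late S phase, written E, EM, ML and L (M for mid), and DNA holding BrdU was immunoprecipitated and sequenced. Every fraction was present for both GSC-like replicates and for CySC-like replicate 2. Only E and L were present for CySC-like replicate 1, whose EM and ML were not analysed here. All values are DNA signal and not expression, so no cell type marker could be read from them.

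Replication-dependent histone genes encode the core histones H2A, H2B, H3 and H4 and the linker histone H1, which package DNA as it is copied. In flies they lie in a tandem array on chromosome 2L, in which most repeat units hold a gene of each type and His2A and His2B, and likewise His3 and His4, are transcribed away from each other. The genes are transcribed in S phase at a nuclear structure called the histone locus body, and their mRNAs end in a stem-loop in place of a poly(A) tail. The fly genome is known to carry more copies than the reference assembly places, and the number of copies in the flies used was not measured here, since no library of unselected DNA was analysed.

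The copies were close to identical in sequence, which sets what the windows can resolve. Across the interval, only 1.44% of stretches of 50 bases occurred once in the reference assembly, against 91.0% in the left flank and 79.1% in the right flank. The median stretch in the cluster occurred 23 times, counted on both strands. The 23 His3 copies had 2 distinct sequences, of which 1 was shared by 18 copies. The 20 His2A copies had 4 distinct sequences, the 22 His4 copies 6, the 23 His2B copies 7 and the 23 His1 copies 12. A read from the array therefore often matched many copies equally well, and how such reads were placed is not given in the sources used here. GC content was 40.0% in the cluster, 38.4% in the left flank and 37.7% in the right flank.

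The mark that the members share at their 3′ ends is the stem-loop, which the stem-loop binding protein Slbp recognises in histone mRNA. It is shown because it is the feature by which these genes are told from genes with poly(A) tails, and because its sequence was the same in nearly all copies of a type. The most frequent version of each type is shown at the first copy that has it, read 5′ to 3′ on the strand of the gene from RefSeq's Release 6 sequence, with the 16 bases of the stem-loop in capitals.
His1: aaacaAGTCCTTTTCAGGGCTacaac
His2A: caaacCGTCCTTTTCAGGACGaccaa
His2B: aaaacGGCCCTTTTCAGGGCCacaat
His3: taatcGGTCCTTTTCAGGACCacaaa
His4: caatcGGTCCTTTTCAGGACCaccat
The His1 site lies at chr2L:21417962-21417987 (plus strand), the His2A site at chr2L:21424213-21424238 (plus), the His2B site at chr2L:21418234-21418259 (minus), the His3 site at chr2L:21420641-21420666 (plus) and the His4 site at chr2L:21419520-21419545 (minus). All lie within 150 bases of the annotated 3′ end, in the stretch searched. The core CCTTTTCAGG was chosen as the stretch of 10 bases that most members share there, so its count among members is a description. It was searched on the strand of the gene from 150 bases before to 60 bases after the annotated end, and found in 110 of 111 members, the exception being a His2B copy. It was found in 0.788% of the 13968 protein-coding genes of the genome, and in 0 of the 13857 that are not members. On either strand the share was 0.802%.

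Upstream of the genes, the types differed. The motif TATAA, which lies where TATA boxes are found, was searched on the strand of the gene in the 60 bases before each annotated start. It was present in 20 of 20 His2A, 23 of 23 His2B, 23 of 23 His3 and 17 of 22 His4 copies, and in 0 of 23 His1 copies, whose promoters are known to be served by a relative of the TATA-binding protein. The share among all protein-coding genes was 17.7%, and 21.4% on either strand. The search follows the annotated starts, and the annotated length of His4 copies ran from 412 to 528 bp. The part of annotation in the count of 17 of 22 was not tested. The most frequent version of each type is shown at the first copy that has it, with the motif in capitals.
His2A: cggaaaagTATAAatatttcgctgtc
His2B: aaaaaaagTATAAacgtgaacgcgtt
His3: gattgctaTATAAgtaggtagcaaat
His4: gttttaccTATAAataggggcacaca
They lie at chr2L:21423699-21423724 (plus strand), chr2L:21418717-21418742 (minus), chr2L:21420090-21420115 (plus) and chr2L:21419956-21419981 (minus), in the order shown.

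The interval between His3 and His4, with a median of 183 bp over 22 pairs, holds a run of alternating GA or TC bases, the kind of repeat that the zinc finger protein Clamp binds at this locus. Runs of at least 3 repeats were found in 18 of the 22 intervals, in 6 versions with their surroundings including the absence of a run. The most frequent version, present in 5 intervals, is shown on the plus strand from chr2L:21489751-21489780 with the run in capitals. On that strand it reads from the His4 side towards His3, and the line is labelled by the interval, not by direction.
His3 to His4: ctgttTCTCTCTCTCTCTCTCTCTCTCttt
GAGAG, searched on both strands of the 60 bases before the start, was present in 23 of 23 His3, 17 of 22 His4 and none of the His1, His2A and His2B copies, against 7.72% of all protein-coding genes. The His4 count again follows the annotated starts. These matches describe the sequence and do not locate a bound factor.

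Libraries differed in depth. Those of GSC-like replicate 2 held 0.516 M to 7.05 M reads, against 49.1 M to 144 M in the remaining 10 libraries. Its reads were paired-end, and those of all remaining libraries single-end. This replicate stood apart from the rest in the signal of the cluster, so comparisons between cell types are also given without it. The table gives RPKM, a read count divided by window length and library size, for 3 kb windows placed every 1 kb.

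The cluster had far more signal than its flanks in every library and in every fraction. In GSC-like replicate 1 its mean was 18.1, 15.2, 18.6 and 23.3 RPKM in E, EM, ML and L, against 8.82, 5.16, 5.28 and 5.90 RPKM in the flanks. In GSC-like replicate 2 the cluster had 279.7, 44.8, 9.09 and 63.7 RPKM in the same order, against 12.3, 6.91, 2.35 and 3.95 RPKM in the flanks. The E library of this replicate held the most extreme value of the study for the cluster, 22.7 times its flanks. In CySC-like replicate 1 the cluster had 33.8 RPKM in E and 19.3 RPKM in L, against 5.99 and 7.25 RPKM in the flanks. In CySC-like replicate 2 it had 21.2, 21.8, 21.0 and 22.6 RPKM in E, EM, ML and L, against 8.62, 5.73, 8.66 and 6.15 RPKM in the flanks.

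**Figure D1:**
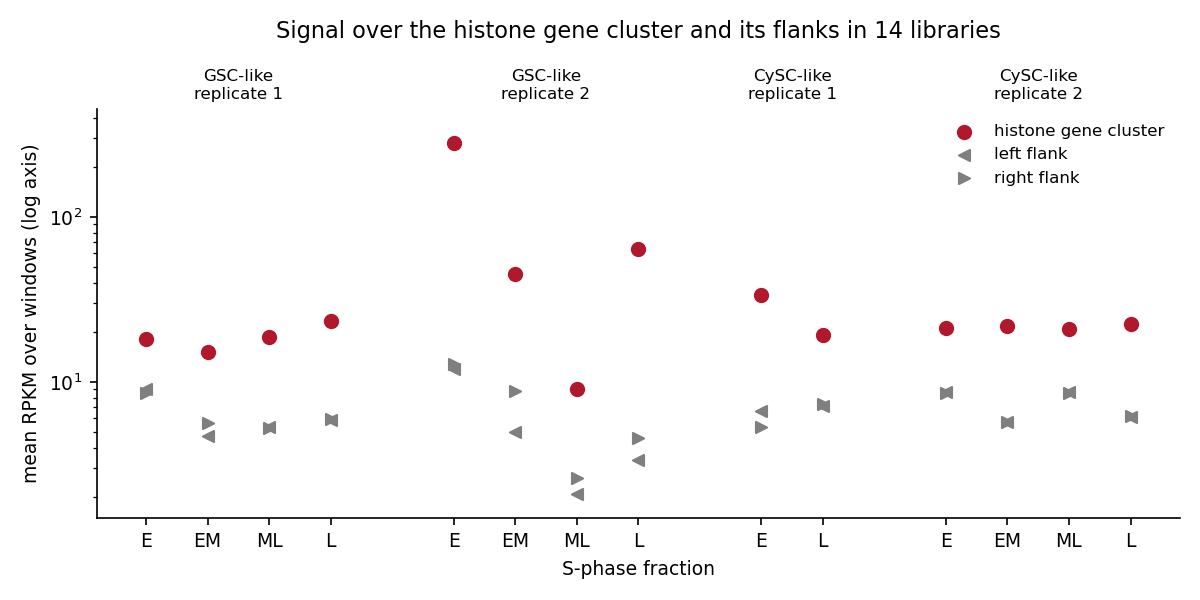
Mean RPKM (log axis) over the windows of the histone gene cluster (circles) and of its left and right 200 kb flanks (triangles) in each of the 14 libraries, ordered by fraction within each replicate. The cluster lies above both flanks in all 14 libraries, with the widest gap in E of GSC-like replicate 2, at 279.7 RPKM against 12.3 RPKM in the flanks.

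The ratio of cluster to flanks lay between 2.06 and 3.94 in GSC-like replicate 1, between 3.87 and 22.7 in GSC-like replicate 2, at 5.64 and 2.66 in CySC-like replicate 1 and between 2.42 and 3.81 in CySC-like replicate 2. The ranges of windows inside and outside overlapped in every library, but few flank windows reached the typical level inside. The windows inside include those over an inserted retrotransposon, the roo element described below. In E of GSC-like replicate 1, for example, the lowest window inside had 5.93 RPKM and the highest outside 17.1 RPKM. The lowest mean of a repeat unit without roo was 16.2 RPKM there. In E of GSC-like replicate 2 the lowest window inside had 24.4 RPKM and the highest outside 125.7 RPKM. The lowest mean of a repeat unit without roo was 280.0 RPKM in that library. In 12 of the 14 libraries none of the 400 flank windows reached the median of the 122 windows centred in the cluster, and the exceptions were EM and ML of GSC-like replicate 2, with 2 and 5 such windows. To place the level in the genome, all chromosome arms, chromosome 4 and Y were tiled with 1075 segments of the length of the cluster. The cluster ranked between 1 and 5 of 1075 in mean level in 13 libraries, and 112 in ML of GSC-like replicate 2. Ranked by level over its own flanks, it was between 1 and 6 in all 14. Extra copies and stronger labelling cannot be told apart in these levels.

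The cluster took a share of the reads above its share of the assembled sequence, which is 0.0907%. In GSC-like replicate 2 it held 3.58% of the reads in E (exact 95% binomial interval 3.57% to 3.60%) and 0.118% in ML (0.108% to 0.127%). In the 12 libraries besides these the share lay between 0.195% and 0.815%. These intervals cover counting error only, with reads taken as independent, and leave out the spread between replicates. How duplicate reads were handled is not given in the sources used here.

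The measure of timing was log2(E/L), in which E and L signal of 1 replicate were rescaled to an equal mean, raised by 0.1 RPKM and divided, so that higher values mean more signal in early S phase. In the cluster it was -0.49 and 1.84 in GSC-like, against 0.68 and -0.12 in CySC-like (replicate 1 before replicate 2, here and below). In both cell types 1 replicate had more cluster signal in E and the other more in L, so the ranges of the cell types overlapped. These signs were the same with libraries as deposited, rescaled by the median window and rescaled on autosomal arms. Among the 1075 segments of a replicate, the cluster stood at percentile 19.8 and 95.5 in GSC-like, against 73.9 and 33.2 in CySC-like. The flanks had log2(E/L) of 0.44 and 1.33 in GSC-like, against -0.39 and 0.45 in CySC-like.

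**Figure D2:**
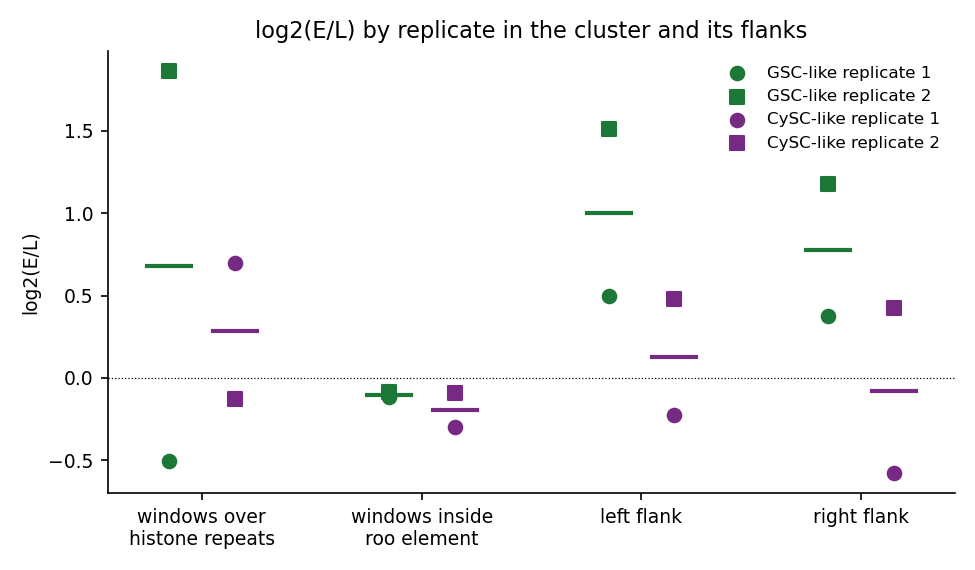
log2(E/L) of each replicate (circle, replicate 1; square, replicate 2) for the windows over histone repeats, the windows wholly inside the roo element and both flanks, GSC-like left of CySC-like, with bars at the mean of 2 replicates. Over the histone repeats the replicates of each cell type lie on opposite sides of 0, at -0.50 and 1.86 in GSC-like, against 0.70 and -0.12 in CySC-like.

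The comparison between cell types was made on cluster minus flank of the same replicate, which hardly depends on the scaling of libraries. This local difference was -0.93 and 0.51 in GSC-like (mean -0.21 ± 1.02, SD, n = 2), against 1.07 and -0.57 in CySC-like (mean 0.25 ± 1.16, SD, n = 2). The values of each cell type again straddled 0 and the groups overlapped. GSC-like minus CySC-like was -0.46 (SE 0.69, 95% interval -2.12 to 1.20), with an adjusted p of 0.866 in limma over 1075 segments and a two-sided exact permutation p of 0.667, where 2 against 2 cannot go below 0.33. Limma called 0% of segments in this comparison, with 83 at an unadjusted p under 0.05. Within GSC-like the cluster did not pass the test against its flanks (adjusted p = 0.788, limma), nor within CySC-like (adjusted p = 0.788, limma), and 0% of segments passed in both, with 325 and 263 at an unadjusted p under 0.05. Without GSC-like replicate 2 the difference between cell types was -1.18, and without GSC-like replicate 1 it was 0.26; leaving out CySC-like replicate 1 gave 0.36 and CySC-like replicate 2 gave -1.28.

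Without the flanks, log2(E/L) of the cluster differed by 0.39 between GSC-like and CySC-like (adjusted p = 0.478, limma), where 2.42% of segments were called. Limma's SE for this value, 0.26, borrows its spread from segments of like signal and is far below the spread of the replicates themselves, which had an SD of 1.65 in GSC-like, against 0.57 in CySC-like. The difference depended on scaling, at 0.05 with libraries rescaled by the median window and 0.12 on autosomal arms, and limma-voom on recovered reads gave -0.27 (adjusted p = 0.755). Without GSC-like replicate 1 it was 1.56, without GSC-like replicate 2 -0.77, without CySC-like replicate 1 0.79 and without CySC-like replicate 2 -0.01.

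The level of the cluster over its flanks was also compared in the outer fractions. In E it was 1.03 and 4.49 on the log2 scale in GSC-like, against 2.47 and 1.29 in CySC-like, so that the CySC-like values lay between the GSC-like ones. The difference of 0.88 (95% interval -3.34 to 5.11) did not pass the test (adjusted p = 0.994, limma, 0% of segments called, 37 at an unadjusted p under 0.05), and without GSC-like replicate 2 it was -0.85. In L it was 1.96 and 3.98 in GSC-like, against 1.40 and 1.86 in CySC-like. Both GSC-like L libraries thus lay above both CySC-like L libraries, although the nearest values, 1.96 and 1.86, were close. The difference of 1.34 (95% interval -0.40 to 3.09) did not pass the test (adjusted p = 0.566, limma, 0% of segments called, 95 at an unadjusted p under 0.05; exact permutation p = 0.333), and without GSC-like replicate 2 it was 0.33.

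Across all 4 fractions the cluster peaked in a different fraction in each replicate. In GSC-like replicate 1, E, EM, ML and L held 22.5%, 19.2%, 26.6% and 31.7% of the summed rescaled signal of the cluster, with the peak in L, against 33.1%, 19.8%, 22.8% and 24.3% in the flanks, with the peak in E. In GSC-like replicate 2 they held 67.7%, 11.0%, 2.32% and 19.0% of that of the cluster, against 46.2%, 26.3%, 9.29% and 18.2% of that of the flanks. In CySC-like replicate 2 the cluster had 24.1%, 26.8%, 23.0% and 26.2%, nearly even over the fractions, against 29.3%, 21.0%, 28.4% and 21.3% in the flanks. Its highest fraction depended on scaling, being EM here but L with values as deposited (26.1%, against 25.2% in EM).

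The ratio of the highest to the lowest fraction of the cluster put these patterns on 1 scale. In GSC-like it was 1.64 for replicate 1 and 28.9 for replicate 2, against 1.16 for CySC-like replicate 2. Over all segments the median of that ratio was 1.55, 2.53 and 1.54 in the same order. The cluster of CySC-like replicate 2 was thus among the segments with the flattest profile, since 30 of 1075 were lower, while that of GSC-like replicate 2 had the steepest profile of all 1075. EM and ML of CySC-like had 1 library each, so no test was made on the profiles. The E share of the cluster minus that of the flanks was -10.6 and 21.5 percentage points in GSC-like, against -5.24 in CySC-like replicate 2.

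**Figure D3:**
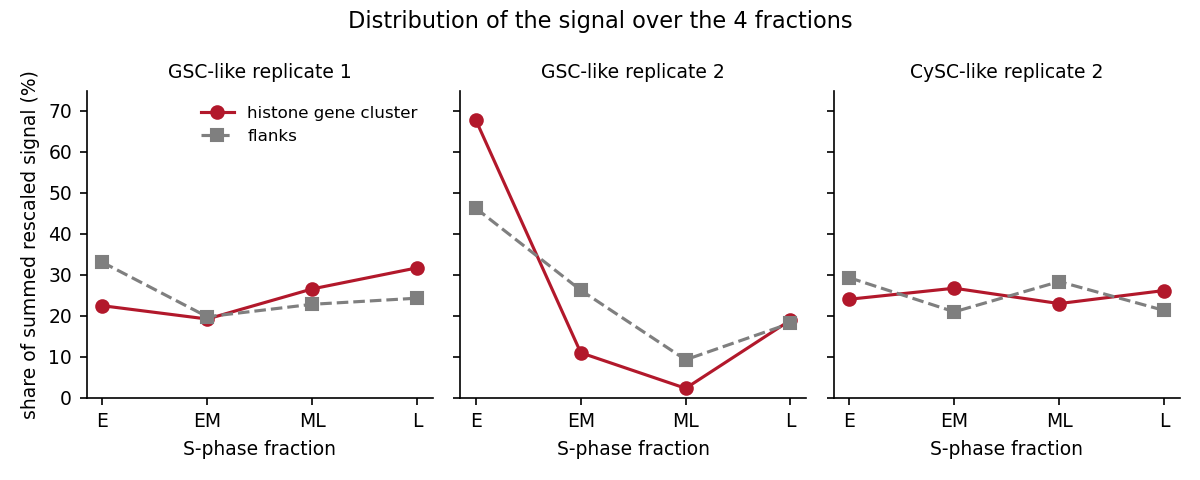
Percent of the summed rescaled signal in E, EM, ML and L for the cluster (circles, solid) and its flanks (squares, dashed) in the 3 replicates with all 4 fractions. The cluster peaks in L in GSC-like replicate 1 (31.7%) and in E in GSC-like replicate 2 (67.7%), and is nearly even in CySC-like replicate 2 (23.0% to 26.8%).

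Along the chromosome the ratio was flat over the histone repeats of the cluster. Their copies share sequence and hence reads, so this flatness is no measure of even timing. At the ends of the cluster the ratio changed by differing amounts. In CySC-like replicate 1 the 18 windows centred 2 to 20 kb to the left of the cluster had a log2(E/L) of -0.87 and those 20 to 50 kb away -1.21, against 0.68 in the cluster. In GSC-like replicate 1 the same strips had -0.10 and 0.76, against -0.49 in the cluster. In GSC-like replicate 2 they had 1.34 and 2.34, against 1.84 in the cluster, and in CySC-like replicate 2 -0.38 and 0.28, against -0.12. On the right the strips of 2 to 20 kb had -0.25 and 1.07 in GSC-like, against 0.19 and -0.02 in CySC-like.

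**Figure D4:**
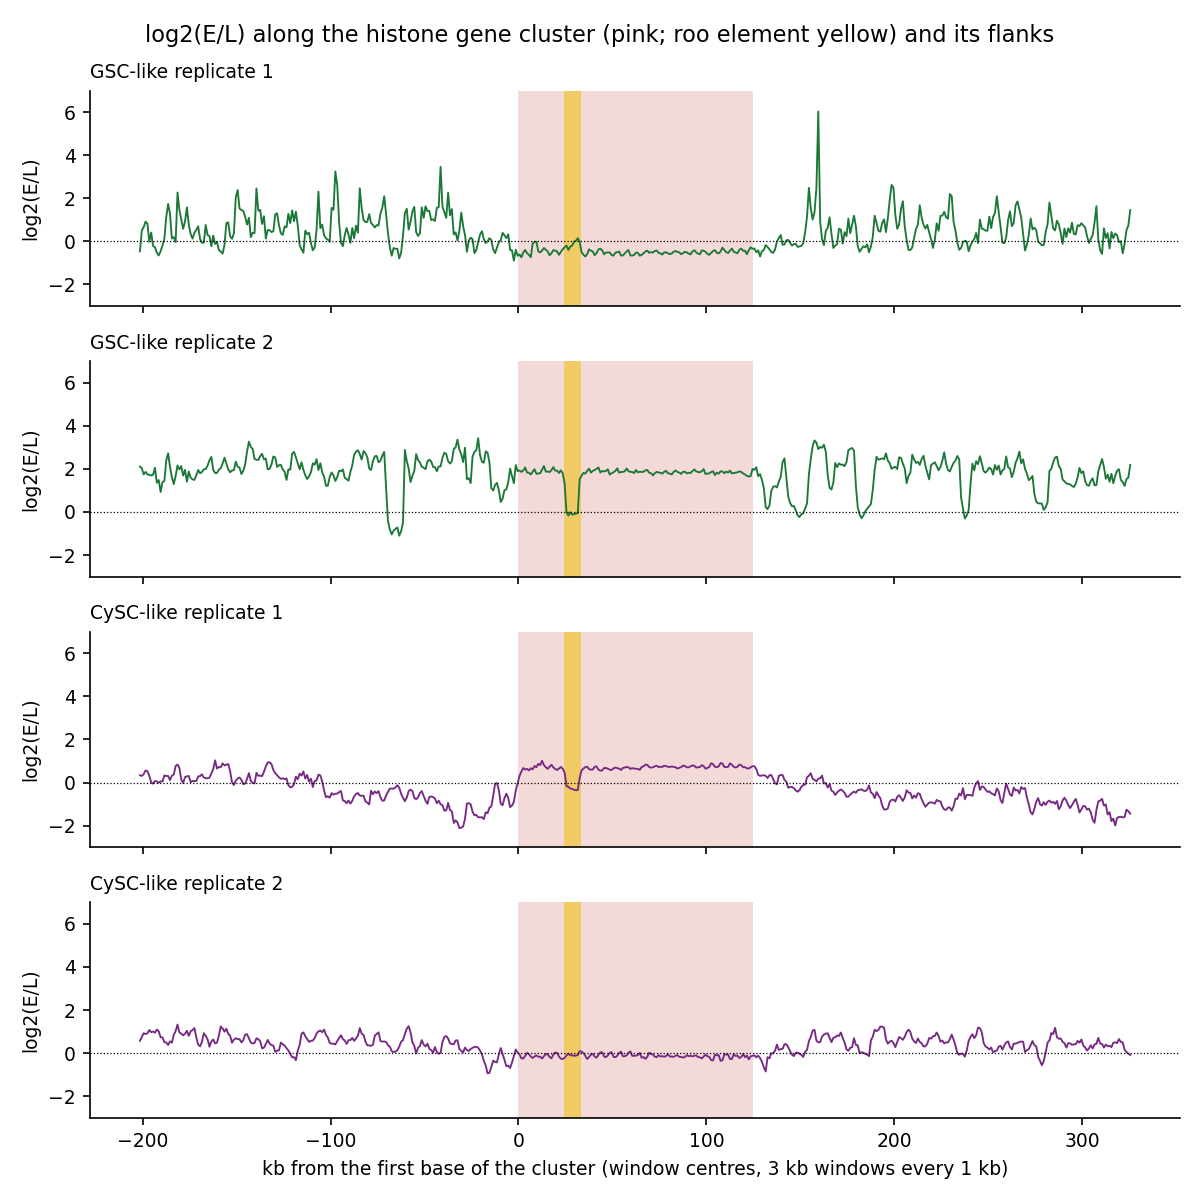
log2(E/L) in 3 kb windows along the cluster (pink, roo element yellow) and 200 kb on either side, in kb from its first base, with a panel per replicate. Inside the cluster the line is level at about -0.50, 1.86, 0.70 and -0.12 from the top panel down, apart from the roo element, while both flanks vary from window to window. The copies inside share sequence and hence reads.

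A roo retrotransposon of 9135 bp (chr2L:21441096-21450230) interrupts the array and gave a contrast within it. The roo element is repeated across the genome, and only 2.61% of its 50-base stretches occurred once in the assembly. In the 6 windows wholly inside it, the ratio was -0.12 and -0.09 in GSC-like, against -0.30 and -0.09 in CySC-like. The spread seen over the 116 histone windows, from -0.50 to 1.86, was thus absent from the inserted element, where reads of other roo copies cannot be told apart. In E of GSC-like replicate 2 the roo windows had a mean of 26.5 RPKM, against 299.0 RPKM in the histone windows, and in EM of that replicate 46.7 against 44.8 RPKM.

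The ratio log2(E/L) differed little between repeat units. The array held 22 units from the start of a His1 gene to the next, of which 21 lacked the roo element, with a median length of 5045 bp (4843 to 5151 bp). The SD of log2(E/L) over the 21 units was 0.058 and 0.042 in GSC-like, against 0.065 and 0.039 in CySC-like. That is small beside the gap between replicates, and units share sequence and hence reads, so they are no independent measurements. Signal had a coefficient of variation of 5.65% to 19.5% over units. Its highest unit was number 2 or 4 from the left in all 14 libraries and its lowest number 16 or 3.

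**Figure D5:**
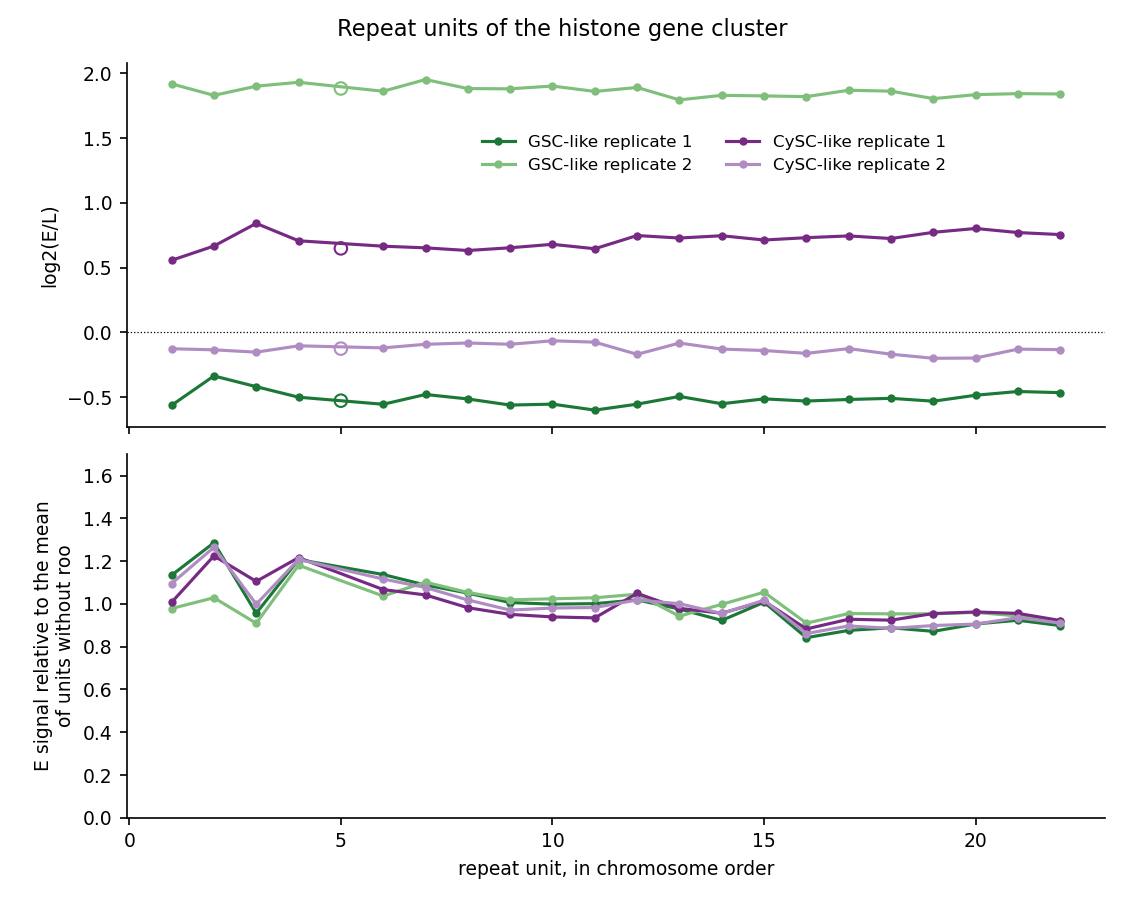
Top, log2(E/L) of each repeat unit in chromosome order in the 4 replicates (open circle, the unit with the roo element). Bottom, E signal of each unit relative to the mean of the 21 units without roo, where units 2 and 4 are high in most replicates and unit 16 is low.

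Within a unit the order of genes is His1, His2B, His2A, His4 and His3. Windows centred 1 to 2 kb from the start of His1, around His2B, had 1.07 to 1.17 times the library's mean over the units. Windows centred 3 to 4 kb from it, around His3, had 0.895 to 1.01 times that mean. The windows around His3 were thus not the highest of the unit. The H3 reporter transgene also encodes this type, and its part in these values was not tested. Windows of 3 kb span several genes, so no value belongs to a single gene.

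By type, the linker histone gene His1 had a median log2(E/L) over its 23 copies of -0.54 and 1.83 in GSC-like, against 0.68 and -0.09 in CySC-like. For His2A, which encodes a core histone that pairs with H2B, the medians over 20 copies were -0.55 and 1.85 in GSC-like, against 0.74 and -0.16 in CySC-like. His2B, its partner, had -0.56 and 1.83 in GSC-like, against 0.70 and -0.14 in CySC-like. His3, which pairs with H4 and carries many of the modifications of chromatin, had -0.45 and 1.88 in GSC-like, against 0.73 and -0.15 in CySC-like. His4 had -0.49 and 1.89 in GSC-like, against 0.75 and -0.17 in CySC-like. Each type thus had the signs of the whole cluster in all 4 replicates, as neighbouring genes share windows. Every one of the 111 members had at least 2 windows that contained it, and no low-value filter removed any.

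Copies of a type lay close together, and the lowest of His1, His2B and His4 were in the first repeat unit. The lowest mean log2(E/L) over replicates among His1 copies was 0.35 at His1:CG33801, the first gene of the cluster, and the highest 0.55 at His1:CG33804. Among His3 copies, the lowest was 0.44 at His3:CG33812, next to the roo element, and the highest 0.59 at His3:CG31613. Among His4 copies, it ran from 0.45 at His4:CG33909 to 0.60 at His4:CG33907. Among His2B copies it ran from 0.40 at His2B:CG33910 to 0.52 at His2B:CG33908, and among His2A copies from 0.43 at His2A:CG33865 to 0.51 at His2A:CG33859. The windows that contain His1:CG33801 also reach into the left flank. This copy had log2(E/L) of -0.64 and 1.91 in GSC-like, against 0.15 and -0.02 in CySC-like. The part of the flank in these values was not tested. The last gene on the right is His3:CG33866. The nearest annotated neighbours on both sides are histone pseudogenes, and the nearest protein-coding genes are nrv3, 23634 bp to the left, which encodes a sodium pump subunit, and Lamp1, 31708 bp to the right, which encodes a lysosomal membrane protein.

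In 10 kb bins, the difference in log2(E/L) between GSC-like and CySC-like was called by limma in 0 of the 12 bins wholly inside the cluster, where 0.182% of 13745 bins were called, and 0 of the 12 had an unadjusted p under 0.05. The lowest adjusted p among them was 0.784. Within GSC-like, 4 of the 12 bins had an adjusted p under 0.05 for higher signal in E, where 19.1% of bins were called in that direction, although GSC-like replicate 1 had more L than E signal in those 4 as in all 12. That count was 0 with 5 kb bins, median rescaling, a pseudocount of 1, no filter, no variance trend, or E and L as separate libraries, and 5 of 6 with 20 kb bins. It was 11 of 12 without GSC-like replicate 1 and 0 without any of the other replicates. None of the 12 bins were called within CySC-like, where 2.12% of bins were called higher in E and 11.8% higher in L.

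Genes that act with the histone cluster lie elsewhere, and each was read in the 10 kb bin that holds its start. The shares over all bins cover the chromosome arms, 4 and Y, and were not matched to bins that hold gene starts. The list held 32 genes, and 0 were called by limma as different between GSC-like and CySC-like (0.182% of all bins were called, and 1 gene, mute, had an unadjusted p under 0.05). The median difference over the list was 0.32, against 0.20 over all bins. Within GSC-like 13 of 32 were higher in E and none in L, where 19.1% and 14.1% of bins were called in these directions. Within CySC-like 1 of 32, His3.3A, was higher in E and none in L, where 2.12% and 11.8% were called. These calls depend on the replicates and the scaling. The 13 became 25 without GSC-like replicate 1, 0 without GSC-like replicate 2 (when 48 of 13745 bins were called in either direction, against 4563 with all replicates), 8 and 7 without CySC-like replicates 1 and 2, and 0 with median rescaling or with E and L as separate libraries. Within CySC-like the count of 1 became 0 without either CySC-like replicate, when 0 and 1 of all bins were called in place of 1914, and 4 and 3 without GSC-like replicates 1 and 2. In GSC-like replicate 1, 30 of the 32 genes had a higher log2(E/L) than the cluster, against 11 of 32 in GSC-like replicate 2, and in CySC-like replicates 1 and 2 there were 21 and 30.

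Among histone variants outside the cluster, which are made outside S phase as well, 1 of 6 was called within each cell type, where 19.1% of all bins were called higher in E within GSC-like, against 2.12% within CySC-like. His3.3A, a gene for the replacement histone H3.3, had log2(E/L) of 1.69 and 1.23 in GSC-like, against 1.60 and 0.82 in CySC-like, so all 4 replicates had more signal in E (adjusted p = 0.00732 within GSC-like and 0.0393 within CySC-like, limma). It kept the same sign in every replicate, unlike the cluster. This was no trait of His3.3A alone, since other genes of the list did so too, among them Slbp, mxc and asf1 below. His3.3B, the other H3.3 gene, had -0.11 and 2.26 in GSC-like, against 1.41 and -0.13 in CySC-like, with the same signs as the cluster in each replicate. cid, the histone H3 variant of centromeres, had -0.61 and 2.05 in GSC-like, against 0.09 and 0.07 in CySC-like.

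Of the 12 genes of the histone locus body and of histone mRNA processing, 6 were higher in E within GSC-like, where 19.1% of bins were called so, and none within CySC-like, where 2.12% were. Slbp, which binds the stem-loops shown above, had log2(E/L) of 0.82 and 1.66 in GSC-like, against 1.65 and 0.61 in CySC-like, all above 0. mxc, the scaffold of the histone locus body, had 0.43 and 1.52 in GSC-like, against 0.38 and 0.51 in CySC-like. mute, another protein of that body, had 1.36 and 1.21 in GSC-like, against -0.51 and 0.57 in CySC-like, a difference of 1.26 that did not pass the adjusted test (adjusted p = 0.467, limma). snRNA:U7, the RNA that guides the cut at the 3′ end of histone mRNA, had -0.53 and -1.40 in GSC-like, against 0.56 and -0.11 in CySC-like, a difference that did not pass the test (adjusted p = 0.527, limma). Clamp, the protein that binds GA repeats, had 0.68 and 2.13 in GSC-like, against 0.58 and 0.41 in CySC-like.

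Of 9 histone chaperone genes, 5 were higher in E within GSC-like (19.1% of bins) and none within CySC-like (2.12% of bins). asf1, which hands H3 and H4 to assembly factors, had 0.72 and 2.06 in GSC-like, against 0.93 and 0.45 in CySC-like. Caf1-55, a subunit of the chromatin assembly factor that works at replication forks, had 0.62 and 2.30 in GSC-like, against 1.23 and 0.39 in CySC-like. Of the 5 regulators of histone transcription and S phase entry, 1 was higher in E within GSC-like, near the 19.1% of bins. Cdk2, the kinase that starts S phase and activates the histone locus body with Cyclin E, had -0.32 and 0.16 in GSC-like, against -0.13 and 0.15 in CySC-like. CycE, its cyclin, had 0.09 and 1.24 in GSC-like, against 0.00 and -0.12 in CySC-like.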

How the data were processed

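Per the submitters' processing notes, reads were aligned to dm6 with Bowtie2 2.4.5; other steps, including duplicates and reads with several matches, are not given in the sources used here. The authors deposited a table of RPKM in 3 kb windows every 1 kb. The unit was worked out from the values: in every library 100% of the 3 kb windows were whole multiples of 1 read within a tolerance of 0.01 reads, which gave the depths. Chromosome lengths were equal to those of the reference, and genes came from Ensembl release 115.

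Libraries were rescaled to an equal mean over 137552 windows of 2L, 2R, 3L, 3R, 4, X and Y. Segments and 10 kb bins were averaged, 0.1 RPKM was added and log2 taken, and a feature listed at 0 in at least 4 of the 8 outer-fraction libraries was dropped. Fold changes on this scale understate changes of low values. limma 3.58.1 (R 4.3.3) was fitted to log2(E/L) per replicate with a variance trend. Benjamini-Hochberg adjustment was made over all segments or bins, with a threshold of 0.05. A fit was also run on simulated segments that all had the same spread and no flanks. That setting differs from the fits reported, so it does not check them. E and L of a replicate are paired, since the design text describes all fractions as parts of a biological replicate. Permutation tests used scipy 1.17.1, tables pandas 2.3.3 with numpy 2.4.6, and plots matplotlib 3.10.9, under Python 3.11.15.

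Segments were tiled so that the cluster is 1 of 1075. A window counts for a gene if it contains the gene. Named were the first and last copies, the copies with the lowest and highest mean log2(E/L) of each type, the nearest neighbours, and a list of 32 genes of histone variants, mRNA processing, chaperones and regulators, whatever their values; those detailed in the text were picked from it afterwards for their roles. Members and lists were chosen with earlier results of these data known. Stem-loop, TATAA and GA motifs were chosen after the sequences of the copies had been seen. Alternatives covered scaling, pseudocount, flanks, bin size, filter, variance trend, replicate blocks and each replicate left out.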

Additional observations from a re-analysis of the deposited data

How the results depend on the processing

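With 2 replicates per cell type, the replicates decide the values. Leaving out each replicate in turn moved the difference between GSC-like and CySC-like in cluster minus flank log2(E/L) between -1.28 and 0.36, its mean within GSC-like between -0.93 and 0.51 and within CySC-like between -0.57 and 1.07, the difference without flanks between -0.77 and 1.56, the difference of cluster over flank signal between -0.85 and 2.61 in E and between 0.33 and 2.35 in L, and the E share of the cluster minus that of the flanks in GSC-like between -10.6 and 21.5 percentage points. In L the value of 2.35, without GSC-like replicate 1, had an adjusted p of 0.0473 in limma, with 521 segments called in place of 0. The number of cluster bins called between cell types was between 0 and 11, and the 11 came without GSC-like replicate 1, when 250 of 13745 bins were called. In such fits the lone sample is assumed to vary like the other group. Among the other alternatives the 6 segment results above kept their direction and call, except that limma-voom on recovered reads, added after seeing the data, gave -0.27 for the difference without flanks. The 4 cluster bins called within GSC-like did not hold: 0 were called in 6 of 7 such alternatives, and 5 of 6 with 20 kb bins.

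Counts of called segments moved more. Without replicates left out or crossed, they ran from 0 to 147 within GSC-like and 0 to 88 within CySC-like (both highest with the left flank only), 0 to 77 in L (median over windows) and 0 to 32 for the difference without flanks, against 26 as reported. A replicate block across cell types, for which the labels give only a shared number, called 3 of these and changed no call of the cluster; with E and L as separate libraries 0 were called. Deviations of equal numbers had a correlation of -0.27, and a block with crossed numbers, added after seeing the data, called 41 segments in the local difference and up to 356 within a cell type, but 0 without flanks. The planned quasi-likelihood count test was left out, the deposited unit being RPKM; limma-voom on recovered reads was run for the difference without flanks only. The cause of these changes was not tested. Depth limits ML of GSC-like replicate 2 most, with 607 reads over the cluster.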

Other observations

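The pseudogene His-Psi:CR31614, 1183 bp to the right of the cluster, had log2(E/L) of -0.39 and 1.96 in GSC-like, against 0.68 and -0.13 in CySC-like, near the values of the cluster, although its windows also reach into the cluster. The pseudogene His-Psi:CR31754, 10983 bp to the left, had -0.25 and 1.20 in GSC-like, against -0.15 and -0.27 in CySC-like. Its E signal in GSC-like replicate 2 was 34.8 RPKM, above the flank mean of 12.3 RPKM. The part of reads from the array in these values was not tested.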
